A study of Homo sapiens with 12 samples.

Results

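NCI-H1299, a human non-small cell lung cancer line, was profiled as floating spheroids and as the parental monolayer, with 3 arrays of each. These 6 arrays were chosen by their sample titles and are 6 of the 12 arrays in the study. Parental cells were kept in serum-containing medium. Spheroid cells came from the same line, moved for 7 to 10 days into stem-cell medium, after which the floating cells were collected and put into flasks with a surface that cells do not attach to. The other 6 arrays are xenograft tumours grown from parental or from spheroid cells, again 3 of each, and are used here only to set the culture differences beside a separate set of samples. The replicates are labelled as biological; nothing says they were separate cultures, so p-values measure the spread between these arrays, which may be technical. Medium, attachment and the collection of floating cells changed together between the groups and cannot be told apart.

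Sphere culture is widely used to enrich tumour cells that can grow without attachment and renew themselves. Cells that leave the dish lose integrin contacts with a solid surface, and the serum-free medium removes many growth factors, lipids and attachment proteins. Genes of the extracellular matrix, cell adhesion, growth factor signalling, cytokines and lipid supply are therefore natural ones to follow beside the hypoxia and cell cycle genes often examined in spheroids.

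RNA levels were read from Affymetrix HG-U133 Plus 2.0 arrays as log2 signals, so a difference of 1 is 2-fold. The culture arrays had medians from 5.85 to 6.03. Parental array 2 had the widest interquartile range, 3.44, against 2.82 to 3.07 on the other 5 culture arrays. The 5' control probe set for 18S ribosomal RNA read 6.96 on parental array 1 and 10.50 on parental array 2, against 12.96 to 13.34 on the other 4. GAPDH 3' minus 5' signal, which rises as RNA shortens, was 0.493 on parental array 1 and 0.0264 to 0.129 on the other culture arrays. The same measure for actin was 0.779 on parental array 1 and 0.773 on spheroid array 1, against 0.178 to 0.381 on the other 4. No array was left out of the main comparison, and the part of RNA quality in the results was not tested. Markers reported for this line were read first: VIM, the mesenchymal filament vimentin, averaged 14.16 in parental and 14.41 in spheroid cells, and the simple-epithelium keratin KRT18 averaged 12.56 and 11.66, while the epithelial cadherin CDH1 stayed near the floor of the arrays at 4.53 and 4.59. No endothelial (0 of 10), leukocyte (0 of 9), normal lung epithelium (0 of 9) or neuroendocrine (0 of 5) marker had separate groups at 2-fold. Of the 12 fibroblast markers 1 did, PDPN, the surface glycoprotein podoplanin, at 1.87 higher. The share of all genes was 3.07%, so a count of 0 in such short lists is near it.

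A limma fit to the 6 arrays called 12 of 41091 probe sets (0.0292%) at an adjusted p under 0.05, 4 of them higher in spheroids (0.00973%) and 8 lower (0.0195%). The 12 probe sets belong to 11 genes. In each of them the 3 parental and the 3 spheroid values did not overlap. The size of this set depended on the fit: with the 12 arrays fitted together, which adds the spread of the tumours, limma called 679 probe sets, and with array weights 1137, whereas centring each array on its median left 0 at an adjusted p under 0.05 and 3309 at an unadjusted p under 0.05. Leaving out parental array 3, spheroid array 2 or spheroid array 3 also left 0, with 3482, 1945 and 2429 at an unadjusted p under 0.05. Leaving out parental array 1, parental array 2 or spheroid array 1 raised the count to 49, 32 and 82, and each of these sets held all 12.

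**Figure D1:**
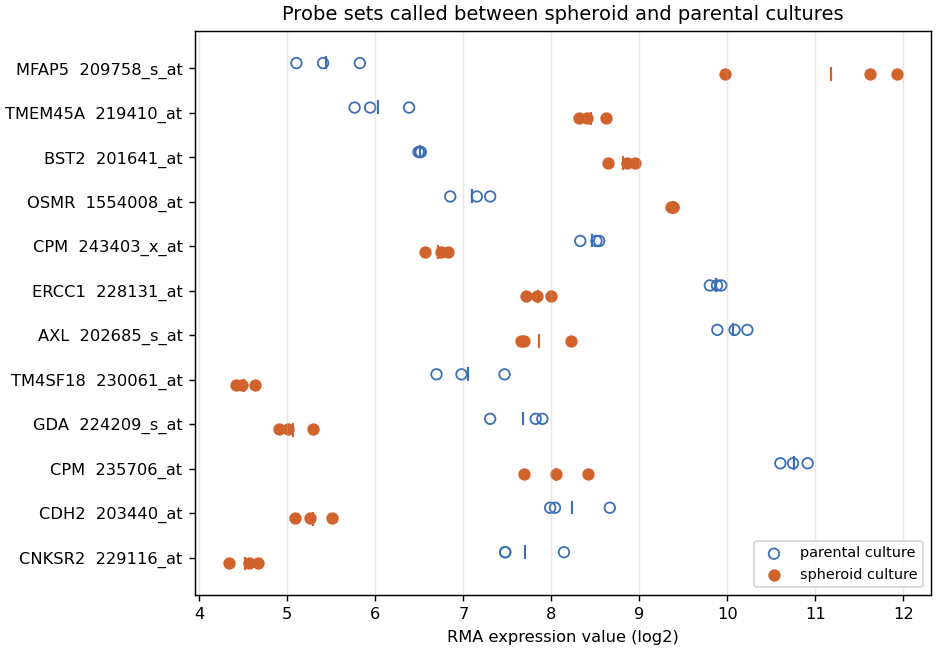
Log2 expression values of the 12 called probe sets on each culture array, with open circles for the 3 parental and filled circles for the 3 spheroid arrays and a short bar at each group mean. The groups are separate in every row, and MFAP5 has the widest gap, with a difference of 5.73.

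MFAP5 rose most. It encodes a microfibril-associated glycoprotein that sits on fibrillin fibres and binds integrins. Its called probe set read 5.82, 5.41 and 5.10 on the parental arrays and 9.98, 11.62 and 11.93 on the spheroid arrays. The parental values lay just above the lower quartile of all culture values, 4.97, and the spheroid values far above it, with the first spheroid array the lowest of its group. The difference was 5.73 (SE 0.50, limma adjusted p = 0.032), and its other 2 probe sets differed by 4.35 and 3.92.

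BST2 encodes tetherin, a membrane protein that holds budding enveloped viruses at the cell surface and is induced by interferon. It read 6.49, 6.52 and 6.51 in parental and 8.64, 8.86 and 8.95 in spheroid cells, with very little spread in either group (difference 2.31, SE 0.15, limma adjusted p = 0.028). The 250 bases before its RefSeq start carry the core of the interferon-stimulated response element, TTTC followed by any 2 bases and TTTC, which is why the stretch is shown. It lies at chr19:17405631-17405880 on the minus strand of GRCh38.p14, and the capitals mark 2 overlapping matches on the reverse strand, which begin at -130 and -124 from the start.
BST2: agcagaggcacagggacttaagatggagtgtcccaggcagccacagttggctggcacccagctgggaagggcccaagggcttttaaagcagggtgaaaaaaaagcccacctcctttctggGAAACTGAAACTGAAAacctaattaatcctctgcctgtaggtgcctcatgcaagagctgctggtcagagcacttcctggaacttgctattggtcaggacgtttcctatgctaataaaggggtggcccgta
Read on both strands, the same letters occur in 3.07% of the 27305 promoter stretches of this length in the RefSeq table. They occur in 5 of the 154 genes (3.25%) that lay at least 2-fold higher in spheroids without overlap and have a stretch there, against 2.48% of all 15382 measured genes that have one. A match describes letters only. The motif was chosen after the value of BST2 was known.

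TMEM45A, a transmembrane protein gene, read 5.94, 6.38 and 5.76 in parental and 8.40, 8.31 and 8.63 in spheroid cells. The difference was 2.42 (SE 0.21, limma adjusted p = 0.032). No spheroid value came near a parental one. OSMR, the receptor chain for oncostatin M, was called through 1 of its 3 probe sets, with 7.15, 7.30 and 6.85 in parental and 9.36, 9.38 and 9.38 in spheroid cells (difference 2.27, SE 0.17, limma adjusted p = 0.028). The spheroid values were nearly identical. The other 2 OSMR probe sets differed by only 0.65 and 0.48 and their groups overlapped.

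Among the called probe sets that were lower in spheroids, those of CNKSR2 and CDH2 had the largest differences. CNKSR2, a scaffold protein of Ras signalling, read 7.47, 8.14 and 7.48 in parental and 4.67, 4.33 and 4.57 in spheroid cells (difference -3.17, SE 0.23, limma adjusted p = 0.028). CDH2, N-cadherin, the adhesion molecule of mesenchymal and neural cells, read 7.99, 8.66 and 8.04 in parental and 5.51, 5.26 and 5.09 in spheroid cells with the called probe set (difference -2.94, SE 0.23, limma adjusted p = 0.029). The brighter of its 2 probe sets over the 6 arrays differed by -0.56 with an adjusted p of 0.327. The direction was the same in both, and the size was not.

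CPM, carboxypeptidase M, a membrane-anchored enzyme that trims arginine and lysine from the ends of peptides, was called by 2 of its 6 probe sets. The brighter of these read 10.91, 10.60 and 10.74 in parental and 7.69, 8.05 and 8.42 in spheroid cells (difference -2.70, SE 0.22, limma adjusted p = 0.029), and the other differed by -1.75. GDA, guanine deaminase, which converts guanine to xanthine, read 7.90, 7.82 and 7.30 in parental and 5.29, 5.00 and 4.91 in spheroid cells (difference -2.61, SE 0.21, limma adjusted p = 0.029). TM4SF18, a member of the L6 family of membrane proteins with 4 passes, read 6.69, 7.47 and 6.98 against 4.63, 4.48 and 4.41 (difference -2.54, SE 0.22, limma adjusted p = 0.032). In all of these the spheroid arrays lay far below the lowest parental array.

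AXL, a receptor tyrosine kinase for GAS6 often followed in lung cancer, and ERCC1, a subunit of the nuclease that cuts damaged DNA in nucleotide excision repair, also fell. ERCC1 read 9.93, 9.88 and 9.80 in parental and 8.0, 7.84 and 7.71 in spheroid cells with the called probe set (difference -2.02, SE 0.15, limma adjusted p = 0.028), and its other 2 probe sets differed by -1.32 and -1.06. AXL read 10.23, 10.08 and 9.89 against 8.22, 7.69 and 7.66 (difference -2.21, SE 0.21, limma adjusted p = 0.042). Its other probe set, the brighter over the 6 arrays, differed by -0.76 with overlapping groups. Both genes lie on chromosome 19, in a stretch described next.

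The differences were then read along the chromosomes, in the gene order of GRCh38.p14, for the 9875 genes above the median brightness, with a median over each 25 neighbours. Chromosome 19 held a long stretch in which most genes were lower in spheroids. It ran from POP4 to VASP over 198 brighter genes, with a median difference of -0.83 against 0.05 over all genes in the order, and 170 of the 198 were below 0. The 25 genes before it had a median of 0.04 and the 25 after it -0.04. Its ends were set where windows stopped departing by 0.4 from the overall median, and such windows up to 25 genes apart were joined. The contrast at the edges follows in part from that rule.

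In this stretch 81 of the 198 genes (40.9%) lay at least 2-fold lower in spheroids with no overlap between the groups, against 2.71% of the genes in the order, and 2 lay higher. The stretch was found from these differences, so the counts describe it and are no test. Set against the median of all brighter genes on the same array, it stood at 0.05, -0.06 and 0.06 on the parental culture arrays and at -0.71, -0.91 and -0.95 on the spheroid arrays. The parental tumours stood at -0.88, -0.95 and -0.81 and the spheroid tumours at -0.95, -0.99 and -1.0. The parental cultures were thus the group that stood apart from the other 9 arrays, and the tumours of both origins sat at the level of the spheroid cultures. Without parental array 2 the median difference of the stretch was -0.73, and over all its 342 measured genes 61 in place of 94 lay lower at 2-fold without overlap. Of all measured genes 1.38% in place of 2.11% did so.

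**Figure D2:**
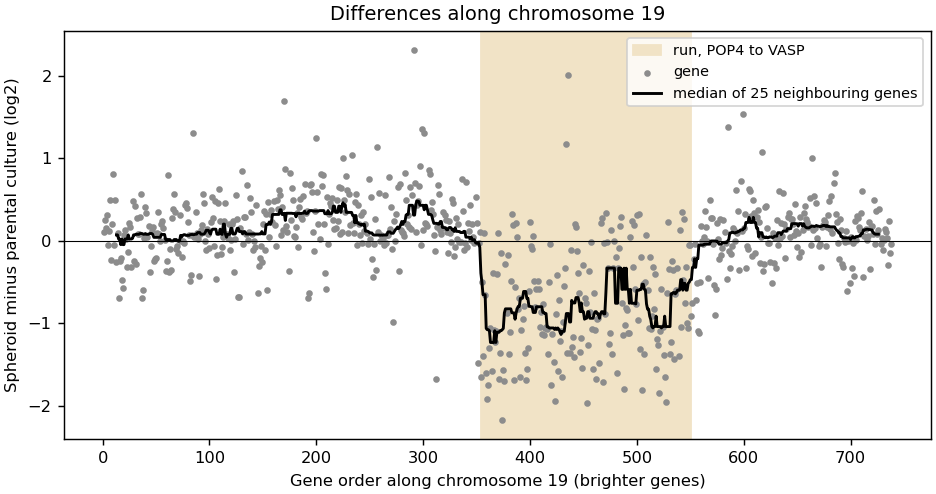
Spheroid minus parental culture (log2) for each brighter gene in gene order along chromosome 19, with a line for the median of 25 neighbouring genes. The shaded stretch from POP4 to VASP has a median of -0.83, and the line returns to near 0 on both sides.

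Single genes of the stretch, AKT2, PAF1, CEBPG and KCTD15, were picked for their functions after their values were seen. AKT2, a kinase of the insulin and PI3K pathway, read 9.85, 10.02 and 9.42 in parental and 8.30, 7.73 and 8.14 in spheroid cells (difference -1.71, SE 0.23, limma adjusted p = 0.081). PAF1, the core of a complex that travels with RNA polymerase II, read 8.94, 9.72 and 9.24 against 7.39, 7.15 and 7.45 (difference -1.97, SE 0.23, limma adjusted p = 0.072). Neither passed the threshold, and in each the groups were more than 1 apart at their nearest values. CEBPG, a partner of bZIP factors such as ATF4, differed by -1.67 and KCTD15, a BTB-domain protein, by -2.17, again without overlap. The proteasome subunits PSMC4 (-1.48) and PSMD8 (-1.35) and the mitochondrial ribosome subunit MRPS12 (-1.18) lie there too. They were the only members of the proteasome (2 of 28) and mitochondrial ribosome (1 of 31) lists with separate groups at 2-fold, beside 3.07% of all genes.

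The KRAB zinc finger repressors are densely clustered on this arm. Of 466 genes with a ZNF symbol, 33 (7.08%) lay at least 2-fold lower in spheroids without overlap. Of the 59 in the stretch 26 did so, among them ZNF180 (-1.95), ZNF585B (-1.94, with 1 of its 2 probe sets of this sign) and ZNF45 (-1.84). Of the 407 outside it 7 did, which is 1.72% against 1.66% of all genes outside it. Without parental array 2 the counts were 13 of 59 and 4 of 407, beside 1.38% of all measured genes.

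Smaller displacements appeared on other chromosomes. On chromosome 6, 156 brighter genes from AARS2 to SGK1 had a median of -0.60 (17.3% lower at 2-fold without overlap), and on the X chromosome 138 from RPGR to NXT2 had a median of -0.46 (12.3%). The share of all genes in the order was 2.71%. Chromosomes 9 and 12 each held a shorter one, with medians of -0.32 over 54 genes and -0.42 over 26. CPM lies in that of chromosome 12. Set against all brighter genes on the same array, the X stretch stood at -0.08, 0.06 and -0.02 in parental and at -0.39, -0.62 and -0.54 in spheroid cultures. In tumours it stood at -0.17 to -0.30 for parental and -0.50 to -0.58 for spheroid origin, so there the 2 origins did not overlap in either setting. The chromosome 6 stretch stood at -0.25, 0.27 and -0.11 in parental and -0.40, -0.84 and -0.69 in spheroid cultures, with parental array 2 the highest. In tumours it stood at -0.02 to -0.48 for parental and -0.53 to -0.84 for spheroid origin, so it did not overlap in either setting. The same held on chromosome 12, narrowly in culture (-0.24 against -0.26 at the nearest arrays). On chromosome 19 the nearest tumours stood at -0.949 and -0.954. In the chromosome 9 stretch the tumours overlapped. On the higher side 64 windows of 25 genes passed the same departure of 0.4 from the overall median, against 539 on the lower side, and the highest window median was 0.56. Counted over all measured genes, brighter or not, those lower at 2-fold without overlap numbered 40 of 355 in the chromosome 6 stretch, 21 of 333 in the X stretch and 4 of 45 in that of chromosome 12. These counts were 22, 11 and 1 without parental array 2. Of all measured genes 2.11% lay lower, and 1.38% without parental array 2. The 1 of 45 on chromosome 12 (2.22%) is near that share.

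**Figure D3:**
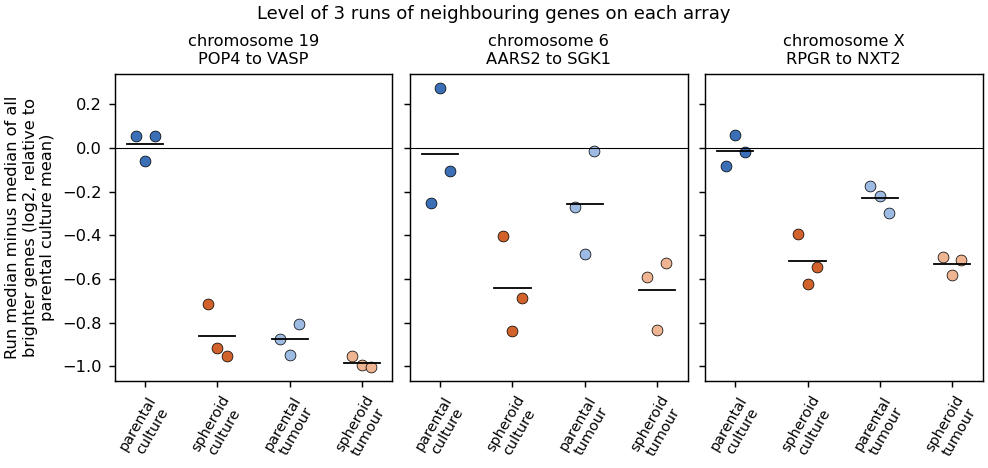
Median of 3 stretches of neighbouring genes minus the median of all brighter genes (log2, each gene relative to its parental culture mean), with 1 point per array and a bar at each group mean. On chromosome 19 the 3 parental cultures, at -0.06 to 0.06, stand above the other 9 arrays, all at -0.71 or below. On the X chromosome spheroid cultures and spheroid tumours lie below the parental arrays of both kinds.

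To describe gene groups beyond the 12 calls, each of 19777 genes was represented by its brightest probe set, and a gene was counted when its 3 values in one group all lay above those of the other and the means differed at least 2-fold. This rule gave 607 genes (3.07%), 190 higher in spheroids (0.961%) and 417 lower (2.11%). These shares stand behind each list count below, and a short list with no such gene lies near them. It is a description, not a test, and 3 against 3 arrays cannot go below p = 0.1 in an exact permutation test. Parental array 2 bore on the balance of directions: it was the highest parental array in 362 of the 417 lower genes, and without it 436 genes lay higher and 273 lower. Of the genes named below, ABCA1, DSC2, FZD2, HEY1, IFIT5, KCNN4, KCNQ5, LEF1, SMAD7, TGFB1 and TSPAN6 no longer met the rule without parental array 2, HLA-E, MSMO1 and SOX4 without parental array 1, and GNG4, KCNQ5, LIF, PMEPA1 and TGFB1 without spheroid array 1. The first spheroid array, which had the high actin value, lay nearest the parental values in 252 of the 417 lower and 125 of the 190 higher genes. Only 5 of the 19777 representative probe sets (0.0253%) were called, so the values below describe levels and differences and make no claim that a gene changed. Over probe sets in place of genes, 338 lay higher (0.823%) and 719 lower (1.75%). The median difference of all genes was 0.07.

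Several matrix and surface genes were far higher in spheroids, and the shares of all genes were 0.961% higher and 2.11% lower. MMP1, the interstitial collagenase, read 6.52, 8.67 and 5.18 in parental and 10.20, 11.15 and 10.99 in spheroid cells (difference 3.99, SE 0.81, limma adjusted p = 0.162). The parental values were widely scattered and still all lower. Of the 37 matrix proteases and inhibitors measured, 3 lay higher and 0 lower, the others being TFPI2, a serine protease inhibitor of the matrix (2.42), and MMP10, stromelysin (1.21). Without spheroid array 1 the list held 3 higher and 3 lower. Among 33 elastic and adhesive matrix genes, MFAP5 and SPP1, the integrin ligand osteopontin (1.56), lay higher and FBN2, the fibrillin of early elastic fibres, lower at -2.68 (SE 0.48). LOXL2, which cross-links collagen, read 9.92, 9.61 and 9.38 against 8.18, 6.09 and 5.90 (-2.91, SE 0.58, limma adjusted p = 0.156), the first spheroid array being the highest of its group. Only 1 of the 3 FBN2 probe sets and 2 of the 4 LOXL2 probe sets had this sign.

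Among receptors for matrix, ITGA2, the integrin subunit that binds collagen, lay 2.14 higher (SE 0.36), and ITGA3, which binds laminins, 1.65 lower, in a list of 23 with 1 higher and 2 lower. FERMT1, kindlin-1, which activates integrins, read 9.34, 9.34 and 8.53 in parental and 10.48, 11.64 and 12.26 in spheroid cells (2.39, SE 0.46, limma adjusted p = 0.156). ANK3, ankyrin-G, which ties membrane proteins to spectrin, read 6.08, 6.17 and 5.09 against 8.83, 10.11 and 10.41 (4.0, SE 0.47, limma adjusted p = 0.072), and all 5 of its probe sets had this sign. PHLDB2, an adaptor that anchors microtubules near adhesions, lay on the other side, at 7.84, 8.92 and 8.10 against 5.25, 4.83 and 5.62 (-3.05, SE 0.33, limma adjusted p = 0.068). Of the 5 PHLDB2 probe sets only 3 were lower in spheroids. With the probe sets shown, both the ANK3 and PHLDB2 groups were more than 2 apart at their nearest values.

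Junction and keratin genes lay lower or did not separate: of 30 measured, 0 lay higher and 4 lower, against 2.11% of all genes lower. DSG2, the desmosomal cadherin, differed by -2.25 (SE 0.56), KRT8, the partner of keratin 18, by -1.43 (SE 0.20), KRT80 by -1.25 and DSC2 by -1.09. KRT8 read 8.60, 9.17 and 9.11 in parental and 7.56, 7.35 and 7.68 in spheroid cells, with tight groups and a limma adjusted p of 0.090. Of the 4, DSC2 fell short of 2-fold without parental array 2.

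The tetraspanin and L6 families differed within themselves, where 0.961% of all genes lay higher and 2.11% lower. TSPAN13 read 8.58, 8.53 and 7.50 in parental and 10.57, 12.63 and 12.73 in spheroid cells (3.77, SE 0.60, limma adjusted p = 0.108), and it was among the brightest genes of the spheroid arrays. Of the 28 members measured 2 lay higher and 3 lower, the lower ones being TM4SF18, TSPAN5 (-1.62) and TSPAN6 (-1.25). Of 40 enzymes that build surface sugars 1 lay higher and 5 lower. FUT9, the fucosyltransferase that makes the Lewis x antigen, read 7.34, 8.54 and 6.92 against 4.91, 4.55 and 4.36 (-2.99, SE 0.41, limma adjusted p = 0.082), with spheroid values near the floor. Of its 3 probe sets 2 had this sign. GALNT13, which starts O-linked chains, differed by -2.13, while B3GNT5, which starts lacto-series glycolipids, lay 1.77 higher. MAN1A1, a Golgi mannosidase that trims N-linked sugars, differed by -2.82 (SE 0.71), and HS3ST3A1, which adds a rare sulfate to heparan chains, by -2.28 (SE 0.29).

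Ligands, receptors and targets of the Notch and Wnt pathways come next. Of 24 Notch genes 3 were higher (12.5%, against 0.961% of all genes) and 1 lower (4.17%, against 2.11%). JAG1, a Notch ligand, read 8.90, 10.10 and 9.09 in parental and 10.48, 11.21 and 11.60 in spheroid cells (1.73, SE 0.40), and 2 genes that respond to Notch, HES4 (1.58, SE 0.32) and NRARP (1.25, SE 0.18), lay higher with it. HEY1, another responder, lay 1.30 lower, with a difference of -0.61 without parental array 2. Of 34 Wnt genes 0 were higher, near the 0.961% of all genes, and 5 lower (14.7%, against 2.11%). The lower ones included the ligand WNT5B (-1.59, SE 0.27) and the receptors FZD1 (-2.08, SE 0.50) and FZD2 (-1.06). The others were the secreted DKK3 (-3.04, SE 0.61) and the nuclear factor LEF1 (-1.30, SE 0.38). Of the 3 WNT5B probe sets 2 were lower in spheroids. DKK3 read 8.86, 10.27 and 9.60 against 7.86, 6.16 and 5.59, below the parental range on all 3 spheroid arrays, and all 6 of its probe sets had this sign. Without parental array 2 the Wnt count was 3 of 34 lower, and without parental array 1 it was 2 higher and 5 lower. FZD2 was named after its value was seen.

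In the TGF-β and activin list 1 of 22 lay higher, PMEPA1 (1.23), and 4 lower, among them the ligand TGFB2 (-1.20), the inhibitor SMAD7 (-1.02) and FSTL1 (-1.87). TGFB1, the other ligand of the 4, lies in the chromosome 19 stretch. Of all genes 0.961% lay higher and 2.11% lower. Only 2 of the 3 FSTL1 probe sets were lower in spheroids. Without parental array 2 the list held 2 higher and 2 lower. Among growth factors, TGFA, a ligand of the EGF receptor, read 8.56, 9.57 and 8.63 in parental and 7.64, 6.04 and 5.17 in spheroid cells (-2.64, SE 0.61, limma adjusted p = 0.210), with the first spheroid array nearest the parental ones. HBEGF, another ligand of the same receptor, lay 1.33 higher (SE 0.37), and IGF1R, the receptor for insulin-like growth factors, 1.47 higher (SE 0.30). EGFR itself averaged 9.38 and 9.49 with overlapping groups. EFNB2, a membrane ligand for Eph receptors, read 7.73, 8.20 and 7.24 against 9.08, 10.87 and 11.13 (2.64, SE 0.54).

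Genes of the NF-κB, cytokine and chemokine list were mostly higher where they separated, 4 of 37 against 1 lower, beside 0.961% and 2.11% of all genes. CXCL1, a neutrophil chemokine, read 6.76, 5.58 and 6.39 in parental and 7.07, 8.64 and 9.43 in spheroid cells (2.14, SE 0.60), so that the first spheroid array was only just above the parental ones. ICAM1, the leukocyte adhesion receptor, was more even, with 8.78, 7.84 and 7.73 against 9.68, 10.05 and 9.72 (1.70, SE 0.30). CXCL3 lay 1.29 and LIF 1.1 higher, whereas PTX3, a soluble pattern recognition protein, lay 3.06 lower (SE 0.56). LIF was named after its value was seen. Of 35 interferon-response genes, BST2 was the only one higher and IFIT5 the only one lower (-1.45). IFIT5 differed by -0.89 without parental array 2, and the list then held 2 higher and 0 lower. The median of the list was 0.15. In antigen presentation HLA-DMA (1.56) and HLA-E (1.04) lay higher, 2 of 19, and 1 without parental array 1.

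Regulators of G protein and cyclic nucleotide signalling were higher in 4 of 39 genes and lower in 1, against 0.961% and 2.11% of all genes. PDE4B, which breaks down cyclic AMP, read 6.93, 6.10 and 5.60 in parental and 9.17, 8.32 and 7.71 in spheroid cells (2.19, SE 0.45). RGS2 (1.75, SE 0.35) and RGS20 (1.39, SE 0.29), which shorten G protein signals, and the gamma subunit GNG4 (1.40, SE 0.47) lay on the same side. ADM, the vasodilator peptide adrenomedullin, read 9.22, 9.12 and 9.56 against 10.56, 12.29 and 12.29 (2.41, SE 0.46). Potassium channels showed 0 higher and 4 lower of 32, KCNMA1 (-1.84), KCNJ2 (-1.37), KCNN4 (-1.19) and KCNQ5 (-1.07), and 2 lower without parental array 2.

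**Figure D4:**
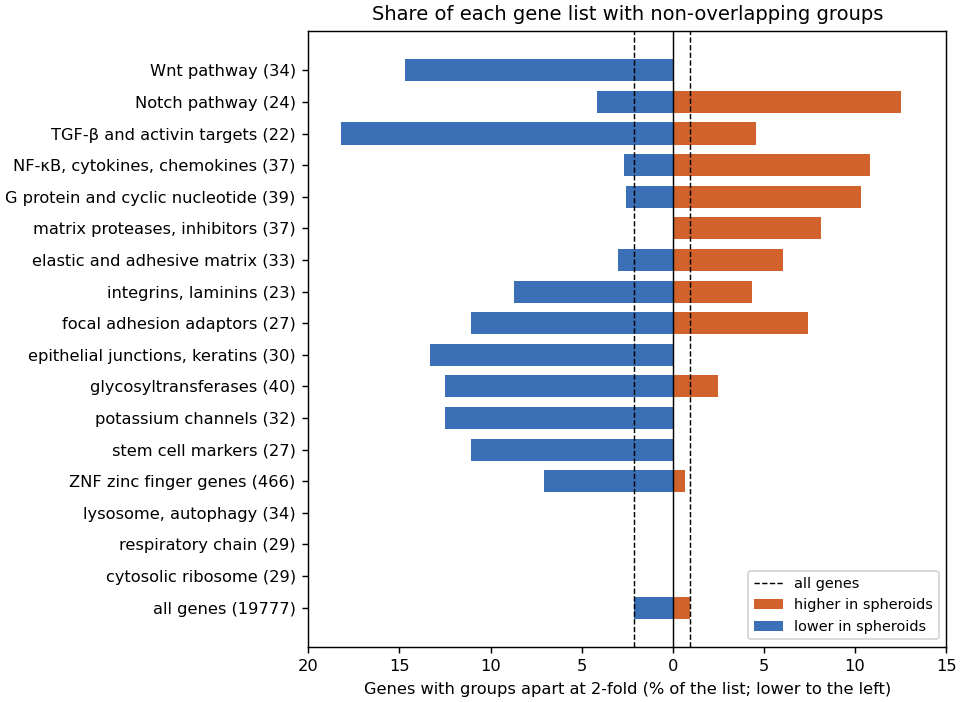
Percentage of each gene list shown whose parental and spheroid values did not overlap and differed at least 2-fold, higher to the right and lower to the left. The lists shown were picked from 78 read, of which 59 held at least 1 such gene. Brackets give the number of measured genes, and dashed lines mark all genes (0.961% and 2.11%). The Wnt, junction, potassium channel and stem cell lists have lower members only, the protease list has higher members only, and the lysosome, respiratory chain and ribosome lists have none.

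Genes used as stem cell markers had a median difference of 0.067, beside 0.070 for all genes. Of 27 measured, 0 were higher and 3 lower, beside 0.961% and 2.11% of all genes. A count of 0 higher is near that share. In 9 of the 27 both group means lay below the lower quartile of all culture values. CD44, the hyaluronan receptor used to sort tumour-initiating cells, read 10.50, 11.27 and 11.39 in parental and 10.08, 8.88 and 8.84 in spheroid cells (-1.79, SE 0.39, limma adjusted p = 0.194), and 11 of its 13 probe sets had this sign. KLF4, a reprogramming factor, lay 2.40 lower (SE 0.64), and the drug efflux pump ABCB1 1.38 lower (SE 0.32). PROM1 averaged 4.26 and 4.24 and ALDH1A1 4.18 and 4.33, both near the floor in either group. SOX2 averaged 6.06 and 5.80 and MYC 11.99 and 12.53, each with overlapping groups. Of other transcription factors KLF5 (1.76, SE 0.34) and SOX4 (1.15, SE 0.31) lay higher and FOXP2 (-1.61, SE 0.43) lower.

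Germline genes were split, with 2 of 37 higher and 2 lower, where 0.961% and 2.11% of all genes were. CTCFL, the testis paralogue of the insulator protein CTCF, read 9.10, 9.29 and 7.73 in parental and 11.18, 11.63 and 11.63 in spheroid cells (2.77, SE 0.41, limma adjusted p = 0.095). DPEP3, a testis dipeptidase, read 9.06, 8.55 and 7.62 against 10.74, 11.31 and 11.06 (2.63, SE 0.37, limma adjusted p = 0.086). Both were expressed in parental cells already and stood higher on every spheroid array. In the apoptosis list 3 of 30 lay higher and 2 lower, and without parental array 1 the counts were 1 and 3. BCL2A1, an inhibitor of mitochondrial death, read 3.98, 3.85 and 4.12 against 4.44, 7.46 and 8.26, so that the first spheroid array stayed near the floor. CASP8 (-1.44, SE 0.39) and BID (-1.34, SE 0.21), which it cleaves, lay lower.

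Lipid genes showed no single direction, beside 0.961% of all genes higher and 2.11% lower. In the sterol list 2 of 25 lay higher and 3 lower: MSMO1, a late enzyme of cholesterol synthesis, at 1.15, against LSS, which closes the sterol rings, at -1.39 (SE 0.22), the lipid regulator SREBF1 at -1.28 (SE 0.21) and the cholesterol exporter ABCA1 at -1.19. Without parental array 1 the list held 0 higher and 3 lower. PLD5, a member of the phospholipase D family, was one of the largest differences, at 6.75, 5.49 and 4.98 against 8.23, 9.88 and 9.91 (3.6, SE 0.59, limma adjusted p = 0.115). SLCO1B3, an organic anion transporter, read 5.39, 4.99 and 5.03 against 5.86, 9.48 and 10.11 (3.35, SE 1.01). There the first spheroid array sat with the parental ones, and the difference was 4.66 without it. TKTL1, a relative of transketolase, read 6.42, 5.47 and 5.72 against 10.86, 9.17 and 8.27 (3.56, SE 0.62), with the first spheroid array the highest.

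Other large negative differences fell on genes of varied function. NIBAN1, a stress-response protein, read 8.04, 10.70 and 9.38 in parental and 6.91, 5.86 and 5.75 in spheroid cells (-3.21, SE 0.65, limma adjusted p = 0.165). TUBB2B, a neuronal beta tubulin, read 7.64, 9.43 and 8.35 against 6.24, 4.97 and 4.93 (-3.10, SE 0.52), and NRN1, the neuritin that promotes neurite growth, 7.61, 8.47 and 7.48 against 5.30, 4.59 and 5.10 (-2.85, SE 0.31, limma adjusted p = 0.072). The groups of all of these were at least 1 apart at their nearest values. SLC10A4, a relative of bile acid transporters, differed by -2.84 (SE 0.61), PAQR5, a membrane progestin receptor, by -2.81 (SE 0.51), SH3BGRL by -2.95 (SE 0.74) and CRYBG1 by -2.64 (SE 0.50). SH3BGRL lies in the X stretch, and FUT9, MAN1A1 and CRYBG1 lie in that of chromosome 6.

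Several housekeeping lists held no gene that met the rule, beside 3.07% of all genes. In lists of this size a count of 0 lies near that share and sets them apart from no other list. No gene of the lysosome and autophagy (0 of 34), respiratory chain (0 of 29), cytosolic ribosome (0 of 29), ribosome biogenesis (0 of 31), spliceosome (0 of 35) or chaperone (0 of 22) lists lay 2-fold apart in either direction. Their medians ran from -0.12 for the spliceosome to 0.25 for the cytosolic ribosome, beside 0.07 for all genes. The HOX and developmental (0 of 27), hedgehog (0 of 14), retinoid (0 of 23), S100 (0 of 20) and aldehyde dehydrogenase (0 of 18) lists likewise held none. Without parental array 2, 2 lysosome and autophagy genes and 1 chaperone lay higher, and without parental array 1, 2 lysosome and autophagy genes lay lower. In that last setting 1 gene each of the ribosome biogenesis, spliceosome and HOX lists also lay lower. Without spheroid array 1, 2 lysosome and autophagy genes lay higher and 2 lower. There 1 gene each of the respiratory chain, chaperone and aldehyde dehydrogenase lists lay higher.

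The culture differences were set beside the xenograft tumours, whose 6 arrays are separate samples. Of the 190 genes higher in spheroid cultures, 34 also lay at least 2-fold higher without overlap in spheroid tumours (17.9%, against 0.511% of all genes) and 4 lay lower. Of the 417 lower genes, 73 (17.5%, against 1.16% of all genes) lay lower in the tumours and 0 higher. By sign alone, 63.2% of the higher and 81.5% of the lower genes kept their side, where 54.3% and 45.7% of all genes had that sign in the tumours. The share of host mouse cells in the tumours was not measured here.

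MFAP5 and PLD5 lay higher on the side of the spheroids in both settings, at 3.53 and 3.17 in the tumours. In a limma fit to the 6 tumour arrays the adjusted p was 0.197 for MFAP5 and 0.011 for PLD5. MFAP5 was widely spread in the parental tumours, at 5.8, 6.7 and 10.1, against 10.8, 11.5 and 11.0 in the spheroid tumours. SLCO1B3 (3.49), TSPAN13 (1.99), ANK3 (1.68), FERMT1 (1.30) and BST2 (1.33) were separate and higher there too. On the lower side TGFA (-3.25), SH3BGRL (-2.96), FBN2 (-2.93), MAN1A1 (-2.26), NIBAN1 (-2.0) and CNKSR2 (-1.47) were separate and lower in the tumours. TGFA read 9.80, 8.78 and 5.87 in the parental tumours (limma adjusted p = 0.183). Besides PLD5, only TSPAN13 (0.038), SH3BGRL (0.0499), FBN2 (0.047) and NIBAN1 (0.011) of these genes had a limma adjusted p under 0.05 in the tumours. By contrast TMEM45A differed by 0.06 in tumours, OSMR by 0.10, DPEP3 by 0.27 and TKTL1 by 0.32, and MMP1 by -0.70, with overlapping groups.

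Whether a culture difference changed in the tumours was tested with the interaction of cell origin and growth as a tumour, in a limma fit to the 12 arrays. It was called for 33 of 41091 probe sets (0.0803%), 5 of them genes of the chromosome 19 stretch. Of the 12 probe sets called in culture 5 were among them: ERCC1 (limma adjusted p = 0.012), GDA (0.020), TM4SF18 (0.024), CPM (0.035) and AXL (0.044). All 5 had fallen in spheroid culture, and the interaction was positive for each. The interaction subtracts the same culture difference by which they were called, so the shared sign follows in part from that choice. ERCC1 averaged 7.82 in parental and 7.66 in spheroid tumours, close to the 7.85 of the spheroid cultures and far from the 9.87 of the parental ones. TM4SF18 went the other way, at 7.01 and 7.48 in tumours against 7.05 in parental and 4.51 in spheroid cultures.

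**Figure D5:**
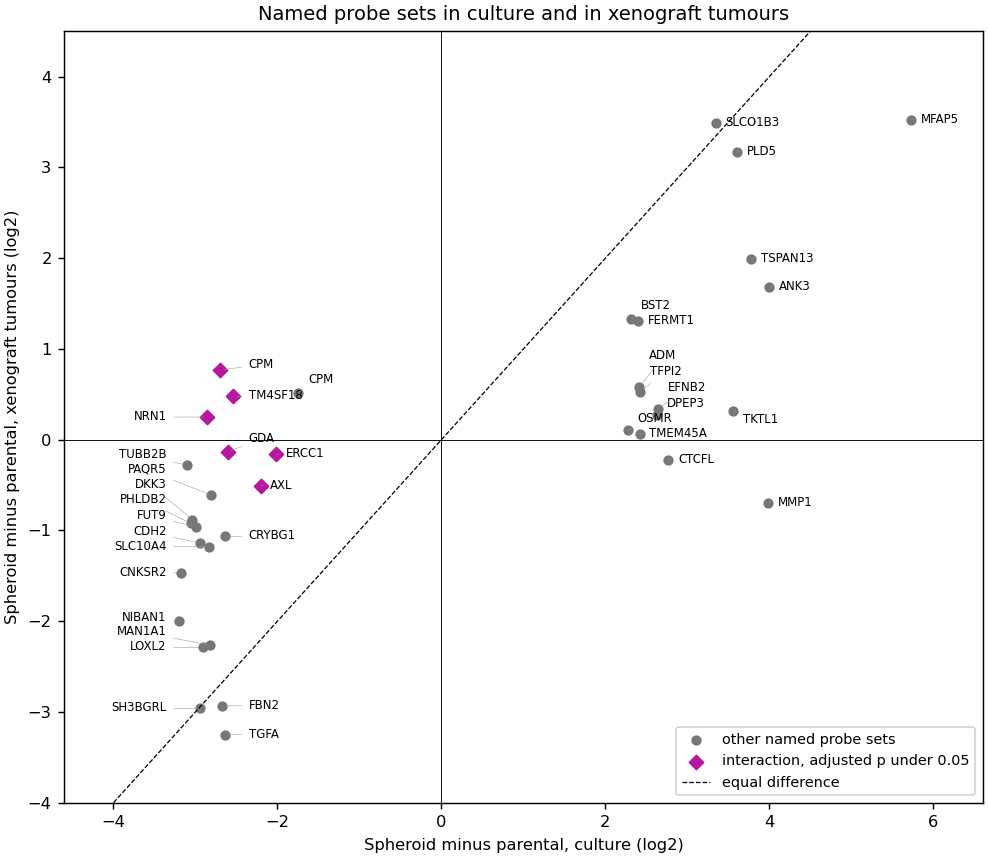
Spheroid minus parental difference (log2) in culture, on the x axis, and in xenograft tumours, on the y axis, for the named probe sets, with a dashed line where both are equal. Of the probe sets plotted, which leave out PAF1, diamonds mark the 6 with an interaction at an adjusted p under 0.05, and MFAP5, PLD5 and SLCO1B3 lie highest in tumours, at 3.53, 3.17 and 3.49.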

How the data were processed

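The deposited log2 values come from RMA, and the submitters' processing notes name the R package affy. The software versions, the genome build and the set of arrays that RMA was run on are not stated there. Per the labels, 2 µg of total RNA was labelled for each array. Of 54675 probe sets, 41091 had 1 gene symbol in the platform annotation, 41037 of them named through the RefSeq gene table of GRCh38.p14, and these were tested. Probe sets with several symbols (1801) or none (11777) were left out, as were the 62 control probe sets, a class that overlaps those. The 6 culture arrays were fitted with limma 3.58.1 in R 4.3.3 with 4 residual degrees of freedom, and p-values were Benjamini-Hochberg adjusted over all 41091. The median SE of a difference was 0.21; the number of arrays limits the precision. Each of 19777 genes was represented by the probe set with the highest mean. Named genes are the called probe sets, the 15 highest and 15 lowest brighter genes without overlap, up to 4 genes per list, and fixed markers. Alternatives covered normalisation, array weights, filters, probe set choice, a replicate block and each left-out array; all were listed at the outset except those without the displaced stretches or without both arrays of low 18S signal and those on the chromosome 19 stretch. The fit was tested on simulated data. Members and gene lists were chosen with earlier results of these data known. The stretches of neighbouring genes and the promoter motifs were chosen after the data were seen.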

Additional observations from a re-analysis of the deposited data

Results flagged for a closer look

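The spheroid minus parental difference was not the same in tumours as in culture for 7 of the probe sets named, by the interaction term of the limma fit to 12 arrays. The interaction is the tumour difference minus the culture difference, in log2. It was 3.47 (SE 0.48) for the brighter called CPM probe set, 3.10 for NRN1, 3.02 (SE 0.39) for TM4SF18, 2.47 (SE 0.29) for GDA, 1.86 (SE 0.20) for ERCC1, 1.84 for PAF1 and 1.70 (SE 0.26) for AXL. All were lower in spheroid cultures. They were named with those culture differences known, and the interaction subtracts them. Their shared positive sign therefore follows in part from the choice and is no separate result. ERCC1, PAF1 and AXL lie in the chromosome 19 stretch, where the parental tumours stood at the level of the spheroid cultures. NRN1 differed by -2.85 in culture and 0.25 in tumours.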

How the results depend on the processing

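The count of called probe sets, 12, moved most with the settings, while 0 of the 12 called and 104 other named probe sets recomputed changed direction. All of those recomputed had groups without overlap in the main comparison. Leaving out an array could therefore not reverse them, and the 0 follows largely from that choice. The count was 679 with all 12 arrays in the limma fit, 241 after quantile normalisation again, 61 after cyclic loess, 1137 with array weights, 85 with a trended and robust prior, 53 among brighter probe sets, 22 with probe sets averaged by gene, 111 at an adjusted p under 0.10, and 0 after median centring (3309 at an unadjusted p under 0.05). Without both parental arrays of low 18S signal it was 0 (3898 unadjusted), with 1 parental array assumed to vary like the spheroid group. Leaving out 1 array gave 0 to 82. Genes without overlap numbered 607, 1341 at 1.5-fold and 206 at 3-fold, and 586 to 893 with 1 array left out; without the chromosome 19 stretch they were 510. The interaction count of 33 became 115 with quantile normalisation, 19 with median centring, 63 with cyclic loess, 282 with array weights, 20 after leaving out probe sets of type _x_at and _s_at, and 2 to 242 with 1 array left out. The chromosome 19 median stayed between -0.96 and -0.73. Deviations from the group means correlated at 0.341, -0.223 and -0.266 between arrays of the same replicate number. They correlated at 0.483 for parental 2 with spheroid 3 and 0.372 for parental 3 with spheroid 2. Deviations within so small a group constrain one another, so these values cannot settle whether the numbers pair the samples. With the replicate block 0 probe sets were called by limma (3529 unadjusted) and the interaction count was 26. The 12 called probe sets kept their call in 137 of 203 alternative values. The causes of these changes were not tested. Differences near the floor of the arrays are limited by background signal.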
